A study of Mus musculus with 2 samples.

Results

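The genes described here are 95 nuclear genes for subunits of the mitochondrial respiratory chain and ATP synthase and for assembly factors of complex I, of 32285 genes in the files. They are all genes whose symbol starts with Nduf, Uqcr or Atp5, or with Cox4, Cox5, Cox6, Cox7 or Cox8 followed by a, b or c, or is Cyc1, Cycs, Cyct, Sdha, Sdhb, Sdhc or Sdhd. They comprise 37 genes for subunits of complex I, 8 for its assembly factors, 4 for complex II, 9 for complex III, 18 for complex IV, 17 for ATP synthase and 2 for cytochrome c. Ndufb1-ps, counted with complex I, is the 1 member that the annotation does not list as protein coding. Ndufa4 and Ndufa4l2 were placed with complex IV, and Cox4i1 and Cox4i2, which the naming rule leaves out, were read beside the members. RNA of dissociated whole mouse testis was counted cell by cell in 2 libraries, 1 from Prm2 +/- mice (heterozygous) and 1 from Prm2 -/- mice (knockout), Prm2 being the gene for protamine 2, which packs sperm DNA. Both genotypes carry a disrupted Prm2 allele, and the age, strain and number of mice per library are not given in the sources used here. Tubules were washed during dissociation to deplete Leydig cells, so the somatic cells are those that remained.

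Respiratory complexes I, III and IV pump protons across the inner mitochondrial membrane, complex II feeds in electrons from succinate, cytochrome c carries electrons from complex III to complex IV, and ATP synthase uses the proton gradient to make ATP. A few small subunits of complex IV and cytochrome c itself exist in versions encoded by separate genes. Cyct, Cox6b2, Cox7b2 and Cox8c are the testis versions, and Cycs, Cox6b1, Cox7b and Cox8a are their general counterparts. Cox6a2, Cox7a1 and Cox8b are the versions of heart and skeletal muscle. Male germ cells pass through mitotic spermatogonia, meiotic spermatocytes, round spermatids and elongating spermatids, and late sperm make much of their ATP by glycolysis.

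The promoters of 3 of the 4 testis and general pairs are shown because the pairs differ most by cell class in the results that follow. Each line holds the 250 bases before the RefSeq start of the gene (build GRCm38.p6), 5′ to 3′ on the gene's strand. Capitals mark 4 motifs and their reverse complements: TGACGT (a core of cyclic AMP response elements), CCAAT (the CCAAT box), CCGGAAG (a core of ETS factor sites) and TATAAA (the TATA box).
Cyct, chr2:76360454-76360703, minus strand: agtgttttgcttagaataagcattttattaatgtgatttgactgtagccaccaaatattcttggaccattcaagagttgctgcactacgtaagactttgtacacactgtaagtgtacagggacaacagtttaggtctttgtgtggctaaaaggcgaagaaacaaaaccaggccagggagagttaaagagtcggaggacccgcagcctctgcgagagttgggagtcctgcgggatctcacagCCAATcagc
Cycs, chr6:50566570-50566819, minus strand: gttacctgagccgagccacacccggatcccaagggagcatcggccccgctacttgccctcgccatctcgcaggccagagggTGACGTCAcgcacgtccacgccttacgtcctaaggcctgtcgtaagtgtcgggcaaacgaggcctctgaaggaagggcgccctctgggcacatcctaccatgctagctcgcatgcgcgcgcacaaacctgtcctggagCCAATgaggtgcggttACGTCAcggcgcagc
Cox6b2, chr7:4753095-4753344, minus strand: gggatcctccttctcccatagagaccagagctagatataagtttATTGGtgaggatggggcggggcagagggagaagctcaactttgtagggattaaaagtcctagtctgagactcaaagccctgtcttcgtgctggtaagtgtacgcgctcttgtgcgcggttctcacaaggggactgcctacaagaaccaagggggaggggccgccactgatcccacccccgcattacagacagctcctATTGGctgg
Cox6b1, chr7:30626115-30626364, minus strand: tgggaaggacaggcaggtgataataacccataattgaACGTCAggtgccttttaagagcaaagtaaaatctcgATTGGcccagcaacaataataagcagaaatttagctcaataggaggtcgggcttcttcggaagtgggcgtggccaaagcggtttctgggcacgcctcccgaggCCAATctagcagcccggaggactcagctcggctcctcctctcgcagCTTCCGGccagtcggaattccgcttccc
Cox7b2, chr5:71548206-71548455, minus strand: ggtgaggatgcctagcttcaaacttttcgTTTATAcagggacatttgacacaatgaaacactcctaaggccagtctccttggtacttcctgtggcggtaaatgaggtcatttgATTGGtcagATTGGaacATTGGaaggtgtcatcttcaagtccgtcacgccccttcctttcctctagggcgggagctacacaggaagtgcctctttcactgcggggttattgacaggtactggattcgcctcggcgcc
Cox7b, chrX:106015450-106015699, plus strand: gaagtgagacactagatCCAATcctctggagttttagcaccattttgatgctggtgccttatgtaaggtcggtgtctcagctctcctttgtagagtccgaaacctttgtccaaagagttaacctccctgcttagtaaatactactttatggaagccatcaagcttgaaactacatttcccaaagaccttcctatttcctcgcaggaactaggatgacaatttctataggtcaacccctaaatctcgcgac
The general Cycs promoter held 3 matches to TGACGT, 2 of them overlapping as 1 palindrome, and 23 CG pairs. None of the 3 testis promoters held a match to TGACGT or CCGGAAG. Among the general promoters Cox7b also held neither, Cycs held no CCGGAAG, and Cox6b1 held 1 match to each. The CCAAT box stood 1 time before Cyct, 2 times before Cox6b2 and 3 times before Cox7b2. All matches before Cox6b2 and Cox7b2 lay on the opposite strand, as ATTGG. Over 300 bases (250 before and 50 after the start), Cyct had 8 CG pairs against 32 in Cycs, and Cox6b2 had 10 against 17 in Cox6b1. The third pair went the other way, with 10 CG pairs in Cox7b2 and 5 in the X-linked Cox7b. Promoters were listed for 79 of the 95 members, with a median of 20 CG pairs against 7 over all 27025 genes listed. Over the same 300 bases on either strand, TGCGCA, a core of the NRF1 motif, stood in 24.05% of the 79 members and 8.79% of all genes. CCGGAAG stood in 24.05% and 9.93%, TGACGT in 12.7% and 8.37%, and TATAAA in 10.1% and 15.7%. CCAAT stood in 45.6% of the members and 41.1% of all genes. The genes themselves lie apart: Cyct at chr2:76353942-76360450, Cycs at chr6:50562563-50566538, Cox6b2 at chr7:4751792-4753094, Cox6b1 at chr7:30616861-30626151, Cox7b2 at chr5:71442824-71548205, Cox7b at chrX:106015700-106022450, Cox8c at chr12:102899316-102900526 and Cox8a at chr19:7215153-7217616 (GENCODE M21, mm10).

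RNA molecules were counted by their unique molecular identifiers (UMIs), 71364845 of them in 15210 barcodes of heterozygous testis and 123588822 in 22885 barcodes of knockout testis. Filtering and doublet removal left 14511 and 18864 cells. The labels' protocols give 15000 cells loaded per library, fewer than the barcodes of either library and than the knockout cells kept. How many barcodes held no cell was not tested. Of the filtered cells, 3.50% in the heterozygous and 16.2% in the knockout library were called doublets, where the number of barcodes would give 12.03% and 18.0%, so that the share called fell further short in the heterozygous library. The part of uncalled doublets in the results was not tested, and 67 barcodes were shared by the cells of both libraries. Cells were grouped into classes by their marker genes, each called "like" a cell type, and 9 classes with at least 50 cells per library were compared. Clusters without a name held 3614 cells (24.9%) of the heterozygous and 910 (4.82%) of the knockout library and entered no class. Levels are UMIs of a gene scaled to the total of its class (CPM), counted at 3′ ends 1 time a molecule, and so were not divided by gene length. All intervals are 95% intervals for counting error only. In elongating-spermatid-like cells Prm2 had 570559 UMIs in the heterozygous and 183 in the knockout library. With 1 library per genotype, differences between the libraries cannot be told apart from differences between mice or preparations, and no test was made.

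In spermatocyte- and round-spermatid-like cells most UMIs of the 4 pairs came from the testis versions. Cox8c, a small membrane subunit of complex IV, was the most abundant of the 95 members when the classes were weighted equally, at 1317.5 CPM over both libraries. In late-spermatocyte-like cells Cox8c stood at 2876 CPM in the heterozygous and 3806 in the knockout library, and its general counterpart Cox8a at 21.51 and 21.99. Cox8c thus made up 99.3% (99.2 to 99.3) of the Cox8 pair's UMIs in the heterozygous library and 99.4% (99.4 to 99.5) in the knockout. Cox6b2, a subunit on the side of complex IV that receives cytochrome c, stood at 1206 and 1166 CPM against 30.1 and 28.3 for Cox6b1. Cox7b2 stood at 790.0 and 834.6 CPM against 1.24 and 1.72 for Cox7b, the most uneven pair. Cyct, the testis cytochrome c, was the least abundant testis version, at 240.3 and 365.6 CPM against 4.22 and 11.6 for Cycs. The Cycs counts are uncertain, since this gene has many processed copies in the genome whose reads cannot always be told from its own. The testis versions together took 98.9% (98.8 to 99.0) of the 4 pairs' UMIs in late-spermatocyte-like cells of the heterozygous library and 99.0% (98.9 to 99.0) of those in the knockout.

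**Figure D1:**
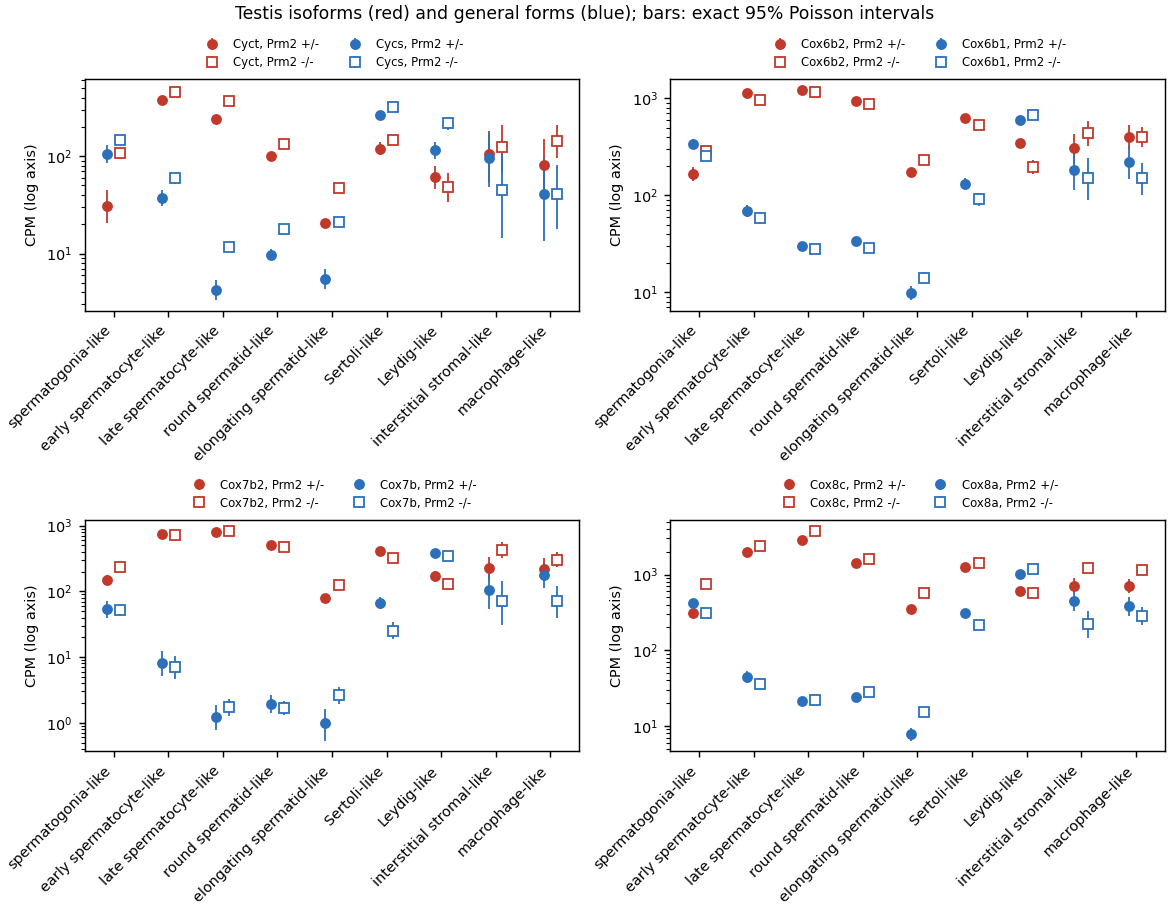
Level in CPM (log axis) of the 4 testis versions (red) and their general counterparts (blue) in 9 cell classes (x axis), filled circles for the Prm2 +/- library and open squares for the Prm2 -/- library, with exact 95% Poisson intervals for counting error. The testis versions lie above the general ones in all 4 spermatocyte and spermatid classes and the general ones lie above in Leydig-like cells of both libraries.

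The switch was already present in early-spermatocyte-like cells, where the testis versions took 96.4% (96.0 to 96.7) of the 4 pairs' UMIs in the heterozygous and 96.6% (96.3 to 96.8) in the knockout library. Spermatogonia-like cells stood lower, at 41.9% (39.3 to 44.6) and 64.1% (62.7 to 65.6). The general versions stood lower over the same step: Cox8a at 417.9 CPM in spermatogonia-like and 44.4 in early-spermatocyte-like cells of the heterozygous library, and at 309.8 and 35.7 in the knockout. Cox6b1 likewise stood at 336.1 and then 69.3 CPM in the heterozygous library. Round-spermatid-like cells kept a share of 97.7% (97.6 to 97.8) and 97.6% (97.5 to 97.7). In elongating-spermatid-like cells the share was 96.3% (95.9 to 96.7) in the heterozygous and 94.8% (94.5 to 95.2) in the knockout library, and all 8 genes stood lower there than in round-spermatid-like cells of the heterozygous library. In the knockout 6 of the 8 did, while Cycs stood at 17.7 CPM in round- and 21.2 in elongating-spermatid-like cells and Cox7b at 1.68 and 2.67. The cytochrome c pair was the least complete of the 4 in that class, with Cyct at 78.8% (74.3 to 82.8) and 69.0% (66.3 to 71.6). Cyct stood at 20.4 CPM in the heterozygous and 47.1 in the knockout elongating-spermatid-like cells, and Cycs at 5.50 and 21.2.

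Testis versions were also counted in somatic classes. Free spermatid RNA can be a source of such UMIs in droplets, so 5 mRNAs of late spermatids (Prm1, Tnp1, Tnp2, Odf1 and Smcp) were counted beside them. Over the whole heterozygous library there were 55.4 UMIs of the 4 testis versions per 1000 UMIs of these mRNAs. The same ratio was 53.4 in Sertoli-like, 54.4 in macrophage-like, 62.0 in interstitial-stromal-like and 36.7 in Leydig-like cells. The whole-library ratio sums all barcodes, cells included, and free RNA itself was not measured. Late-spermatocyte-like cells stood at 633. Spermatogonia-like cells of this library stood at 62.9. In the knockout library the whole-library ratio was 94.7, and the classes stood higher, at 144 in Sertoli-like, 139 in macrophage-like, 189 in interstitial-stromal-like, 174 in Leydig-like, 185 in spermatogonia-like and 1358 in late-spermatocyte-like cells. The testis share was 75.7% in heterozygous and 78.8% in knockout Sertoli-like cells and 63.0% and 78.7% in macrophage-like cells, and the part of free RNA in these shares was not tested. Leydig-like cells, with the lowest testis share of the 9 classes in either library (35.7% and 28.2%), had the highest level of the general Cox8a, at 1019 and 1189 CPM. Sertoli-like cells had the highest Cycs level of the 9 classes, at 264.4 and 320.0 CPM, with Cyct at 119.7 and 146.3. In this class the 12 Sertoli markers summed to 5428 CPM in the heterozygous and 8541 in the knockout library. The 9 markers of elongating spermatids summed to 10681 and 6150 there, so levels and library ratios of this class are those of a mixture.

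Counts in single cells come from the same UMIs as the class totals and are not separate evidence. Cells were thinned to 1000 UMIs each, and shallower ones left out. A gene as low as Cox8a is mostly missed at that depth. It was found in 2.97% of heterozygous late-spermatocyte-like cells after thinning and 16.7% before. Of 1849 late-spermatocyte-like cells of the heterozygous library so thinned (61 left out), 1534 held a Cox8c UMI alone, 47 held both Cox8c and Cox8a, and 8 held Cox8a alone. Of 3987 such cells in the knockout library (480 left out), 3491 held Cox8c alone, 87 both and 12 Cox8a alone. Spermatogonia-like cells were mixed: of 175 in the heterozygous library, 29 held Cox8c alone, 22 both and 35 Cox8a alone. In all, 85.5% (83.8 to 87.1) of the thinned heterozygous late-spermatocyte-like cells held a Cox8c UMI, and 94.5% before thinning, at a median of 8096 UMIs. In macrophage-like cells, which should lack it, 51.0% (36.6 to 65.2) did, and 69.6% before thinning, at a median of 2110.5 UMIs. A Cox8c UMI in a single cell thus says little about its class, whereas the pair's ratio differs widely.

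The muscle versions were nearly missing. Cox8b had 2 UMIs in all barcodes of the heterozygous and 0 in the knockout library, and Cox6a2 had 7 and 13. Cox7a1 had 97 and 180 UMIs, and its highest level among the 9 classes was in Leydig-like cells, at 50.6 (37.0 to 67.4) and 65.6 (48.5 to 86.7) CPM. There it made up 6.16% (4.54 to 8.13) and 8.80% (6.58 to 11.5) of the pair with its general counterpart Cox7a2. In late-spermatocyte-like cells its share was 0.0147% and 0.0401%. Peritubular-myoid-like cells, 8 in the heterozygous and 124 in the knockout library, were too few for comparison, so the muscle versions were not read in them.

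The members' summed level differed by class. It was highest in Leydig-like cells, at 3.62% of all UMIs in the heterozygous and 3.82% in the knockout library, and lowest in elongating-spermatid-like cells, at 0.808% and 0.970%. Early-spermatocyte-like cells stood at 2.82% and 2.57%, late-spermatocyte-like at 2.75% and 2.67%, spermatogonia-like at 2.49% and 2.40%, and round-spermatid-like at 2.07% and 1.92%. Sertoli-like cells stood at 2.36% and 1.92%. Interstitial-stromal-like cells stood at 2.03% and 1.90% and macrophage-like at 1.81% and 1.79%, the latter holding a cluster led by Cd74, H2-Aa and Cd3g beside one led by Lyz2 and C1qa. Per cell, members gave 256 UMIs in heterozygous late-spermatocyte-like and 52.1 in elongating-spermatid-like cells of that library. In elongating spermatids a low share cannot be told from a high amount of other RNA, since the 5 late spermatid mRNAs alone reached 178671 CPM in the heterozygous and 145577 in the knockout library.

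**Figure D2:**
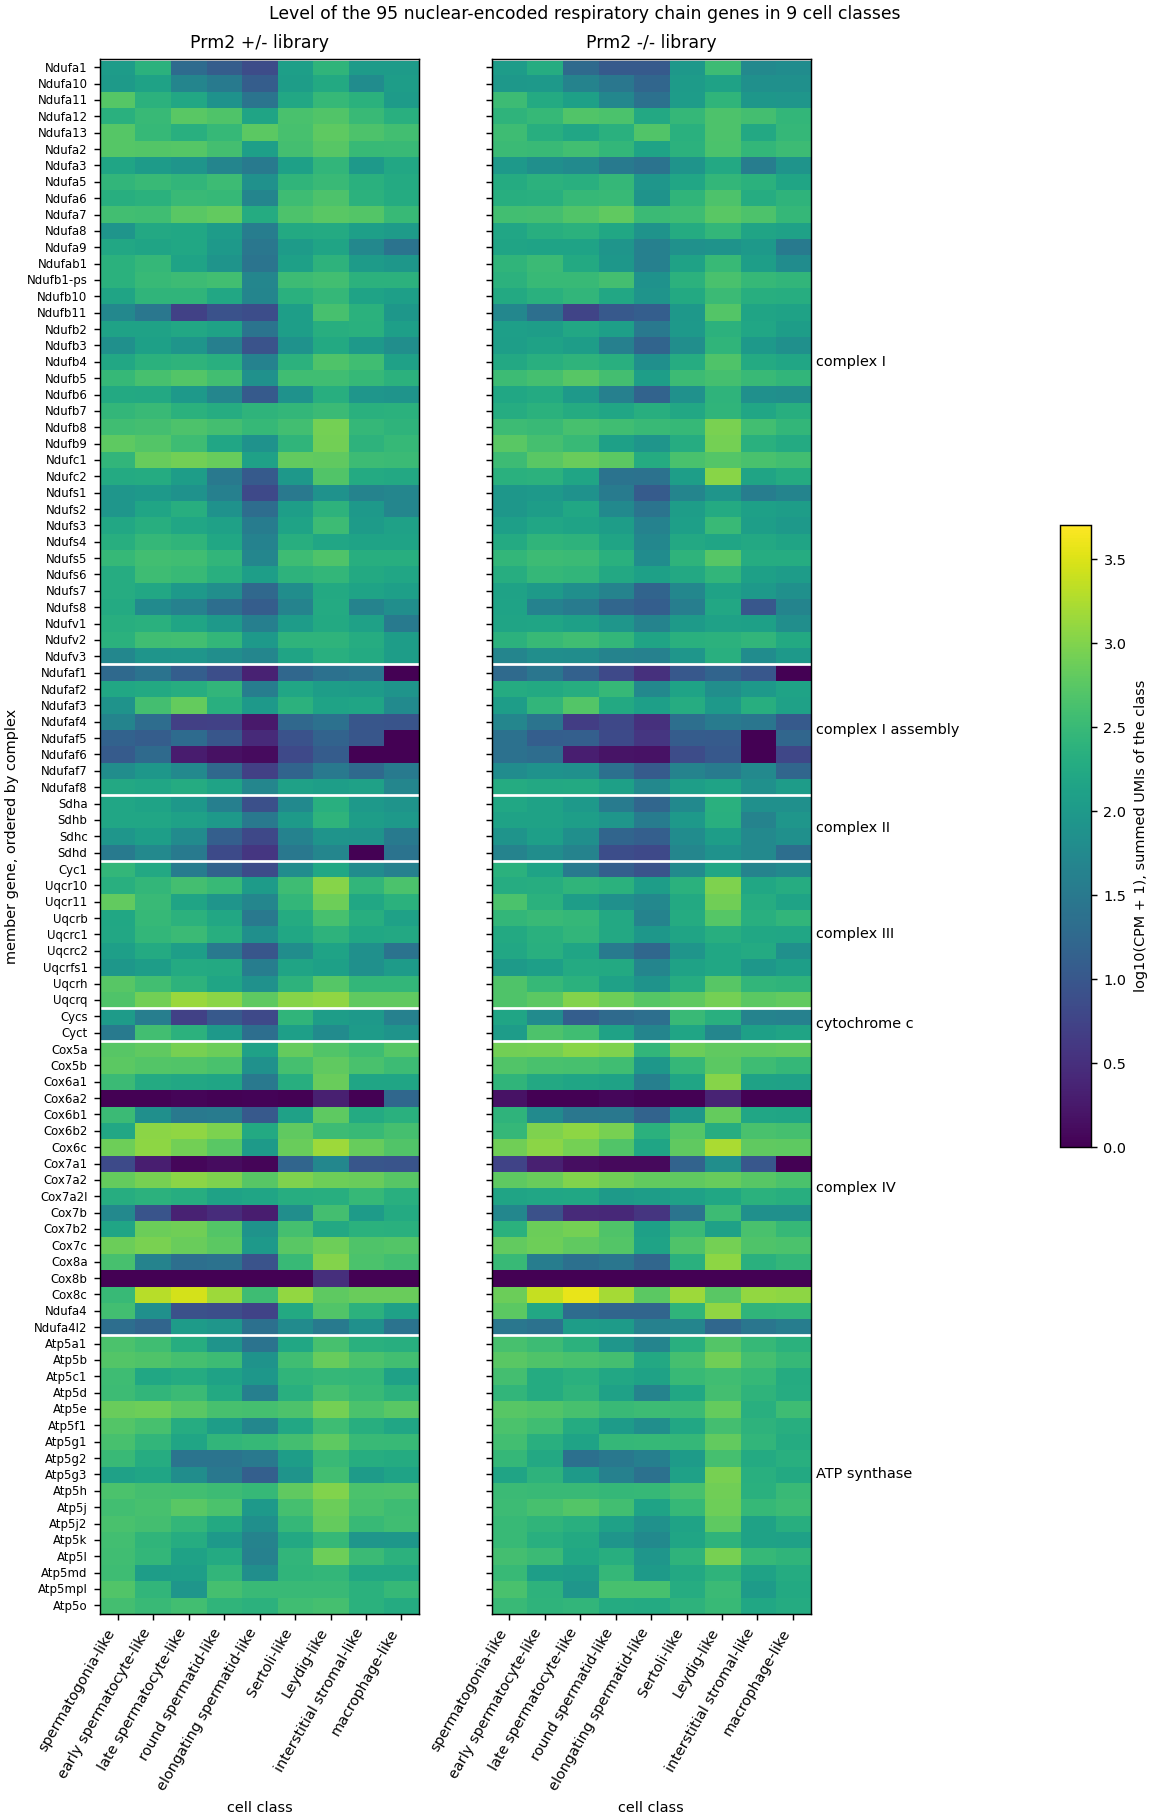
Level of the 95 members (rows, ordered by complex) in 9 cell classes (columns) of the Prm2 +/- library (left) and the Prm2 -/- library (right), as log10 of CPM plus 1. Most rows are darkest in elongating-spermatid-like cells, where the members sum to 0.808% and 0.970% of UMIs, and Cox8c is the brightest row in late-spermatocyte-like cells.

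After Cox8c, the most abundant members over the 9 classes and both libraries were Uqcrq, a small subunit of complex III (781.1 CPM), Cox6c (763.9), Cox7a2 (734.4), Cox5a (645.8), Cox6b2 (577.2) and Cox7c (570.2), all of complex IV, then Atp5e, the epsilon subunit of the ATP synthase head (494.4), and Ndufc1 and Ndufa7 of complex I (480.9 and 439.7). Of the 10 most abundant members, 6 thus belong to complex IV, of which Cox6b2 and Cox8c are testis versions. Cox4i1, the large nuclear subunit of complex IV that the naming rule leaves out, stood at 1252 CPM in late-spermatocyte-like cells of the heterozygous and 1026 of the knockout library.

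Complexes did not move together from spermatogonia-like to late-spermatocyte-like cells. Of 90 members with at least 100 UMIs over the 2 classes in the heterozygous library, 10 (11.1%) were higher and 23 (25.6%) lower by 2-fold or more, where 32% of all 10876 genes under the same rule were higher and 27.3% lower. The members' median log2 ratio was -0.08 beside 0.07 over those genes and -0.20 over those that also reached 50 CPM. ATP synthase had the lowest median of the larger groups (-0.97, 0 of 17 higher and 7 lower by 2-fold). Complex III had a median of 0.58 over 9 members in the heterozygous and 0.08 in the knockout library, and complex I of -0.0002 and 0.20 over 37, so that their order was turned. In the knockout library, where 91 members were compared, 8 were higher and 21 lower by 2-fold (26.6% and 28.8% of all 12436 genes), with a median of -0.10 beside -0.10 over all genes and -0.21 over those at 50 CPM, and ATP synthase stood at -0.80.

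The members that stood higher in late-spermatocyte-like cells included all 4 testis versions. Ndufaf3, an assembly factor of complex I, stood beside them: 79.4 CPM in spermatogonia-like and 657.6 in late-spermatocyte-like cells of the heterozygous library (log2 ratio 3.05, 2.71 to 3.41), and 113.6 and 516.4 in the knockout (2.18, 1.99 to 2.38). Ndufa4l2, the paralog of the complex IV subunit Ndufa4, stood at 20.7 and 107.4 CPM in the heterozygous library (2.37, 1.71 to 3.13) and at 27.9 and 114.2 in the knockout (2.03, 1.65 to 2.45). Ndufa4 itself went the other way and had the lowest ratio of all members in both libraries. It stood at 381.0 and then 7.15 CPM in the heterozygous library (-5.74, -6.04 to -5.44) and at 589.7 and then 19.2 in the knockout (-4.94, -5.09 to -4.79). So Ndufa4 stood above Ndufa4l2 in spermatogonia-like cells and below it in late-spermatocyte-like cells of both libraries. Of the 4 testis pairs, Cyct and Cycs turned in this way in both libraries, whereas Cox7b2 made up 73.3% and 81.9% of its pair in spermatogonia-like cells. Its share was also 86.2% and 92.8% in Sertoli-like and 55.1% and 80.8% in macrophage-like cells, and 30.8% and 27.5% in Leydig-like cells. The part of free RNA in the spermatogonia-like share was not tested. Uqcrq, Ndufc1 and Ndufa12 stood higher with smaller ratios, at 1.54, 1.57 and 1.33 in the heterozygous and 1.09, 1.06 and 0.97 in the knockout library.

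Besides the general members of the pairs, those lower in late-spermatocyte-like cells included Atp5g2, 1 of 3 genes for the same membrane ring subunit of ATP synthase. Its log2 ratio was -3.62 in the heterozygous and -3.71 in the knockout library. Atp5g1, another of the 3, stood at 423.6 CPM in spermatogonia-like and 150.7 in late-spermatocyte-like cells of the heterozygous library, and again at 298.6 in elongating-spermatid-like cells, the highest of the 3 there. Cyc1, the cytochrome of complex III, stood at -3.00 and -2.90 in the heterozygous and knockout libraries, and Ndufaf4, an assembly factor of complex I, at -3.55 and -3.72. No count of UMIs here says whether fewer transcripts are made or fewer are kept.

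From spermatogonia-like to elongating-spermatid-like cells of the heterozygous library, 65 of 86 members were lower by 2-fold or more and 0 were higher, where 46.9% of all 7443 genes under the same rule were lower and 29.4% higher. The members' median log2 ratio was -2.31 beside -0.73 over those genes and -2.04 over those that also reached 50 CPM, so the distance to other genes depends on that limit. In the knockout library the median of 89 members was -1.86, beside -1.05 over all 10132 genes and -1.87 over those at 50 CPM. The 8 lowest in the heterozygous library were Ndufa4 (-6.37), Cox8a (-5.76), Cyc1 (-5.54), Cox6b1 (-5.09), the catalytic complex II subunit Sdha (-4.43), Ndufa11 (-4.39), Cycs (-4.27) and Atp5a1, the alpha subunit of ATP synthase (-4.20). The 8 highest were Uqcrq (0.30), Ndufaf3 (0.26), Ndufa13 (0.17), Cox8c (0.16), Ndufa4l2 (0.11), Cox6b2 (0.09), Ndufv3 (-0.05) and Ndufb7 (-0.14). Cox6b2 and Cox8c are testis versions, whereas Uqcrq, Ndufa13 and Ndufb7 have no testis version among the members. Ndufa13, a complex I subunit, stood at 211.7 CPM in late-spermatocyte-like, 297.2 in round-spermatid-like and 590.7 in the heterozygous elongating-spermatid-like cells, and at 151.7, 222.9 and 494.9 in the knockout. It was thus a member whose share of UMIs was higher in elongating-spermatid-like cells while the median of all genes was lower.

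The 3 X-linked members, Ndufa1, Ndufb11 and Cox7b, stood low from late spermatocytes on. The X chromosome is known to be silenced as a whole in the pachytene stage of meiosis. Ndufb11 stood at 51.8 CPM in spermatogonia-like, 28.1 in early-spermatocyte-like and 4.22 in late-spermatocyte-like cells of the heterozygous library, and at 51.2, 21.1 and 4.77 in the knockout. Ndufa1, a subunit in the membrane arm of complex I as Ndufb11 is, stood at 108.2, 226.4 and 18.4 CPM, and at 108.5, 196.3 and 18.0 in the knockout. Its level thus was still high in early-spermatocyte-like cells, where Cox7b stood at 8.17 and 7.14 CPM, down from 54.1 and 51.2 in spermatogonia-like cells. The median log2 ratio of late-spermatocyte-like over spermatogonia-like cells was -3.09 for the 2 X-linked members with enough UMIs in the heterozygous library, beside -0.07 for 88 others, and -3.42 for all 3 beside -0.06 for 88 others in the knockout. In round-spermatid-like cells they remained low, at 11.4 (Ndufa1), 7.51 (Ndufb11) and 1.95 (Cox7b) CPM in the heterozygous library. Leydig-like cells had the highest level of each in both libraries, with Ndufb11 at 422.1 and 510.0 CPM. Of the 3, only Cox7b has a testis version on an autosome among the members.

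**Figure D3:**
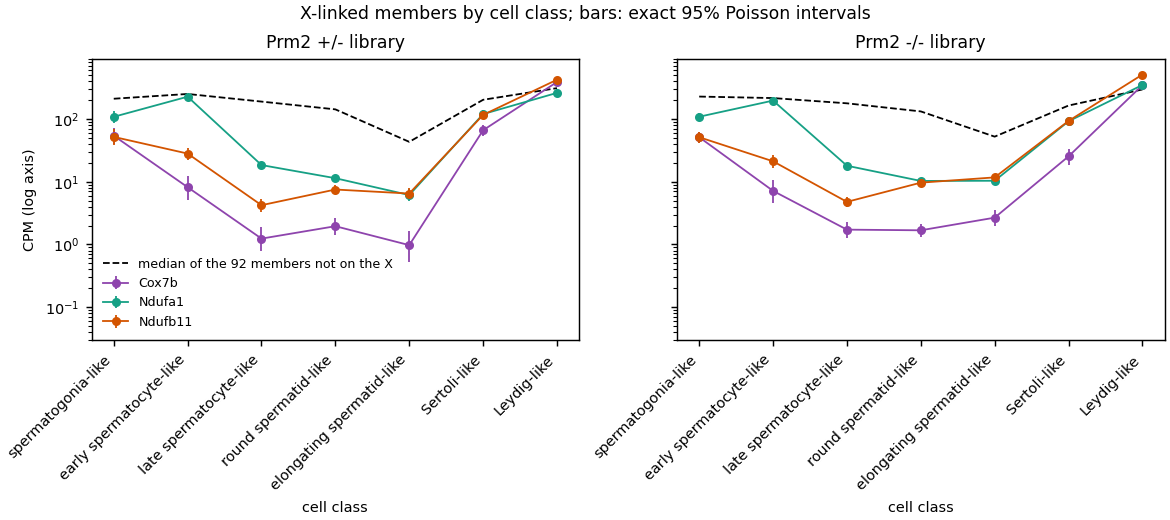
Level in CPM (log axis) of the X-linked members Ndufa1, Ndufb11 and Cox7b in 7 cell classes of the Prm2 +/- library (left) and the Prm2 -/- library (right), with exact 95% Poisson intervals; the dashed line is the median of the other 92 members. Ndufb11 goes from 51.8 CPM in spermatogonia-like to 4.22 in late-spermatocyte-like cells on the left while the dashed line stays near its starting level.

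Between the libraries, the members of germ cells before elongation stood slightly lower in the knockout. A member was compared where it reached 50 CPM in at least 1 library and 100 UMIs over both, and 2-fold was used as a limit of size without a test. In late-spermatocyte-like cells 76 of 95 members were compared, 0 differed 2-fold (1.26% of all 4121 genes compared did), 50 stood lower, and the median log2 ratio of knockout over heterozygous was -0.13 beside 0.01 over all genes. In round-spermatid-like cells it was 0 of 66 members (1.58% of all genes), 45 lower, with a median of -0.16 beside 0.02. In early-spermatocyte-like cells 1 of 84 members, higher in the knockout, differed 2-fold (1.44% of all genes did, 0.965% higher), 62 stood lower, and the median was -0.20 beside 0.01. In spermatogonia-like cells 2 of 86 did, both higher (4.25% of all genes, 3.71% higher), 51 stood lower, and the median was -0.11 beside 0.01. Different clusters filled round-spermatid-like cells, those led by Stc1 (27.0%) and Lrrc4c (24.8%) in the heterozygous and by Kcnb2 (23.1%) in the knockout library. Within the 8 clusters of this class the members' medians lay between -0.31 and 0.06 and those of all genes between -0.005 and 0.11, with the members' lower in each.

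**Figure D4:**
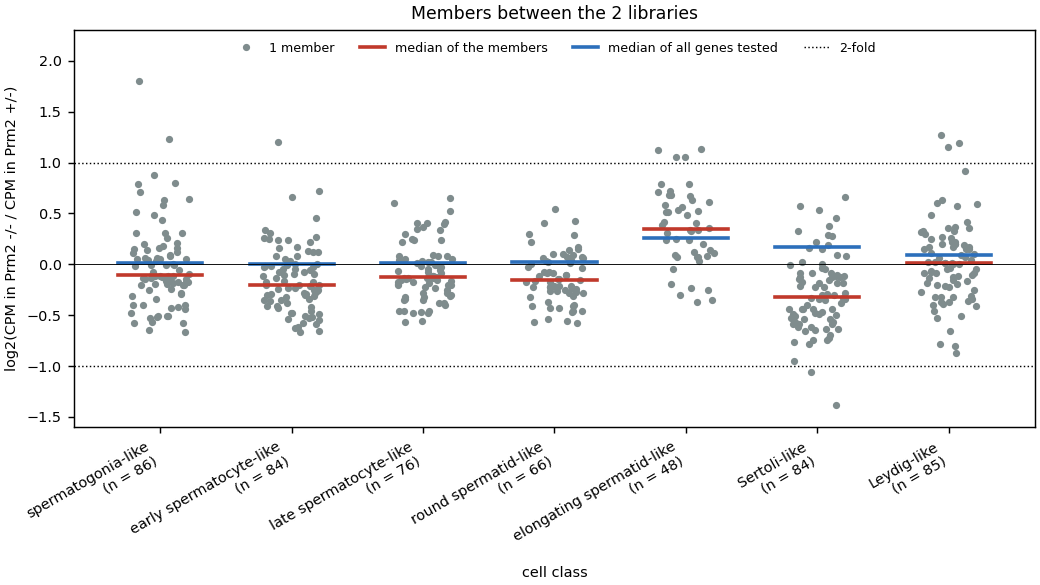
Log2 ratio of CPM in the Prm2 -/- over the Prm2 +/- library (y axis) for each member compared in 7 cell classes (x axis, with the number of members), the members' median in red, the median of all genes compared in blue and 2-fold as dotted lines. The red line lies below the blue one in each class except elongating-spermatid-like cells, where it stands at 0.35 beside 0.26.

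The same members tended to stand lower in each of the 4 germ classes before elongation. Of 65 members compared in all 4, 32 (49.2%) were lower in the knockout in each, and 9 (13.85%) were higher in each. Of all 2169 genes compared in all 4, 446 (20.6%) were lower and 707 (32.6%) higher in each, and the classes come from the same 2 libraries, so that they are not separate evidence. Ndufs7, a core subunit of complex I, stood at 66.0 CPM in heterozygous and 44.4 in knockout round-spermatid-like cells (-0.57, -0.67 to -0.47), and at 162.8 and 102.3 in early-spermatocyte-like cells (-0.67, -0.87 to -0.47). Uqcrq stood at 1122 and 774.7 CPM in round-spermatid-like cells (-0.53, -0.56 to -0.51). Ndufa11, Ndufv3 and Atp5o followed there at -0.57, -0.56 and -0.47. In late-spermatocyte-like cells the lowest were Ndufa3 (-0.56), Uqcr10 (-0.56) and Ndufa2 (-0.48), in early-spermatocyte-like cells also Ndufa2 (-0.66) and Ndufa3 (-0.63, but 0.53 under 1 other setting), and in spermatogonia-like cells Ndufa2 (-0.66), Ndufa11 (-0.65) and Ndufa13 (-0.57). Ndufa2, Ndufa3, Ndufa11, Ndufa13 and Ndufv3 are accessory subunits of complex I, and Uqcr10 and Uqcrq are small subunits of complex III.

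Members that stood higher in all 4 classes included Ndufa8, a complex I subunit, at 109.4 CPM in heterozygous and 159.7 in knockout round-spermatid-like cells (0.55, 0.48 to 0.61). Cyct stood at 100.7 and 134.8 CPM there (0.42, 0.35 to 0.49) and was also higher in late-spermatocyte-like cells (0.61, 0.55 to 0.66). Cox5a followed in round-spermatid-like cells at 0.40, Atp5c1, the gamma subunit of ATP synthase, at 0.30, and Ndufa4l2 at 0.28. Atp5g3, the third ring subunit gene, led late-spermatocyte-like cells (0.65, 0.55 to 0.75), with Ndufa8 at 0.52, and stood at 0.72 in early-spermatocyte-like cells. Ndufa4 was the 1 member past 2-fold in early-spermatocyte-like cells, at 71.1 and 163.7 CPM (1.20, 0.97 to 1.44), and Cycs stood at 0.66. Over the other settings tried, Ndufa4 ranged from 0.39 to 1.56 there, and Cycs from -0.22 to 0.66. The testis versions did not share a direction: in late-spermatocyte-like cells Cox8c stood at 0.40 (0.39 to 0.42), Cox7b2 at 0.08 (0.05 to 0.11) and Cox6b2 at -0.05 (-0.07 to -0.02).

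In spermatogonia-like cells the 2 members past 2-fold were testis versions. Cyct stood at 31.1 CPM (27 UMIs) in the heterozygous and 108.5 CPM (214 UMIs) in the knockout library (1.80, 1.22 to 2.44), and Cox8c at 314.3 and 739.8 CPM (1.24, 1.05 to 1.43, and 0.96 under 1 other setting). Ndufa8 followed at 0.88. The 9 markers of late spermatocytes, none of them at 0, summed to 789 CPM in the heterozygous and 2012 in the knockout spermatogonia-like cells, and the 10 markers of spermatogonia to 1500 and 1441. The part of late spermatocyte RNA in this difference was not tested.

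The library ratio went with the GC content of the transcript, a comparison added after the data were seen. In late-spermatocyte-like cells Spearman's rho across 76 members was -0.49, and -0.26 across all 4116 genes compared with a transcript in the annotation. In round-spermatid-like cells it was -0.37 across 66 members and -0.17 across 3910 genes. These are correlations across genes of the same 2 libraries, which are not independent replicates. The 38 late-spermatocyte members at or below the members' median GC content of 50.25% had a median log2 ratio of 0.02, and the 38 above it of -0.19. All genes split at the same GC content stood at 0.08 and -0.10. The 32 members lower in all 4 classes had a median GC content of 53.8%, and the 9 higher ones of 48.6%. With transcript length, rho among the members was 0.08 in late-spermatocyte-like and 0.02 in round-spermatid-like cells. The part of GC content in the lower level of the members was not tested.

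**Figure D5:**
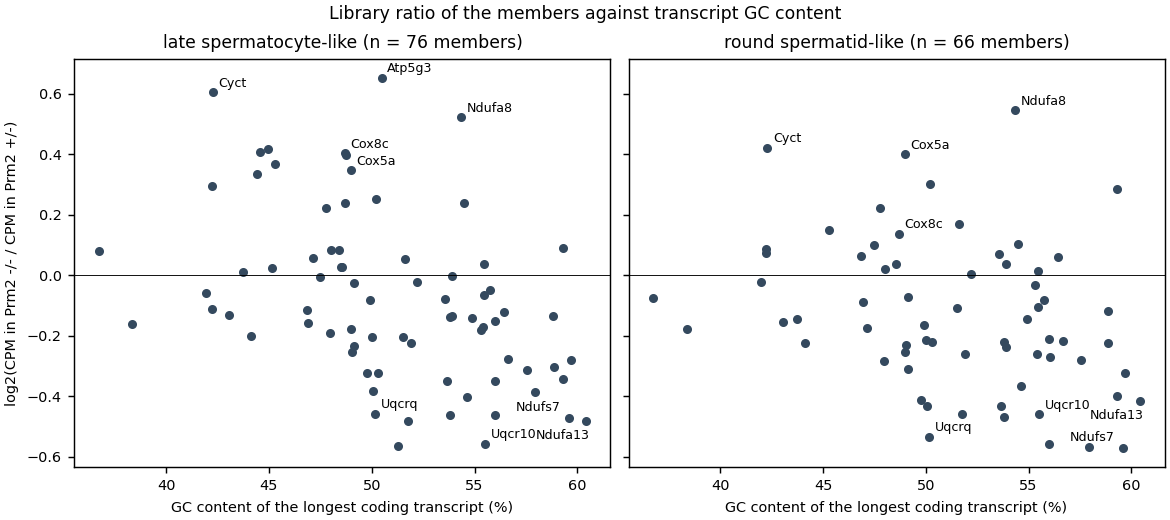
Log2 ratio of CPM in the Prm2 -/- over the Prm2 +/- library (y axis) against the GC content of the longest coding transcript (x axis, percent) for 76 members in late-spermatocyte-like cells (left) and 66 in round-spermatid-like cells (right). Points sink to the right, with Spearman's rho of -0.49 and -0.37, and Ndufa8 lies above the other members of like GC content in both panels, at 0.52 and 0.55.

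In elongating-spermatid-like cells the ratios of members and of all genes both leaned to the knockout. Of 48 members compared, 4 were at least 2-fold higher (9.7% of all 2422 genes were, and 10.7% past 2-fold either way), 0 were 2-fold lower, 41 (85.4%) stood above 0 beside 71.6% of all genes, and the median was 0.35 beside 0.26 over all genes. The share past 2-fold was thus near that of all genes. The median was 0.19 without doublet removal, 0.091 at a finer clustering, 0.090 with clusters weighted equally and 0.072 with a 200 CPM minimum. With TMM factors, which shift every log2 ratio of this class by -0.52, the members' median was -0.18 and 0 passed 2-fold, so the direction holds relative to the class totals only. Atp5b, the catalytic beta subunit of ATP synthase, stood at 78.4 CPM in the heterozygous and 171.5 in the knockout library (1.13, 1.03 to 1.23). Ndufa8 stood at 36.1 and 78.5 CPM (1.12, 0.98 to 1.27), Atp5l, a membrane subunit of ATP synthase, at 41.8 and 86.7 (1.05, 0.92 to 1.19), and Cox5a, a nuclear subunit of complex IV, at 131.4 and 272.5 (1.05, 0.98 to 1.13). With TMM factors their ratios were also positive, and each stayed under 2-fold. Over all settings tried Atp5b ranged from 0.41 to 1.20, Ndufa8 from 0.36 to 1.21, Atp5l from 0.24 to 1.12 and Cox5a from 0.53 to 1.11. Ndufb10 followed at 0.79. The lowest ratios were those of Atp5o (-0.37), Cox7a2l (-0.35), Ndufb7 (-0.30), Ndufa13 (-0.26) and Atp5e (-0.23).

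The class was made of different parts in the 2 libraries. A cluster led by Prss52 and Actrt3 held 5.30% of its cells in the heterozygous and 34.2% in the knockout library. A cluster led by Cby3 and Tnp1 held 57.4% and 43.1%, and 1 led by Prm2 and Nudt16l2 held 33.2% and 21.6%. Leading genes were ranked over both libraries together, and Prm2 had 183 UMIs in all knockout cells of the class, so it does not lead their part. The members' share of UMIs was 1.10% in the first of these clusters in both libraries, 0.794% and 0.883% in the second, and 0.724% and 0.855% in the last. Within them the members' median ratios were 0.01 over 50 members, 0.21 over 47 and 0.29 over 52, beside 0.08, 0.15 and 0.25 over all genes. The members past 2-fold were 0, 0 and 3. The share of all genes past 2-fold was not counted within clusters, so these counts have no background. The share of cells in the first cluster thus moved with the class value, and its part was not tested.

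Among somatic classes, Sertoli-like cells showed the lowest median of the members, -0.33 over 84 members beside 0.17 over all genes, with 2 members past 2-fold, both lower (22.8% of all genes, 3.64% lower). Cox7b stood at 66.1 CPM (95 UMIs) in the heterozygous and 25.3 (48 UMIs) in the knockout library (-1.38, -1.91 to -0.87), and Atp5j2, a membrane subunit of ATP synthase, at 292.9 and 141.0 (-1.05, -1.28 to -0.83), with -1.30 to -0.80 over the settings tried. Ndufa13 followed at -0.95, and the highest were Atp5g3 (0.66), Ndufa4 (0.57) and Sdhc (0.53). Most Sertoli-like cells, 98.4% in the heterozygous and 78.6% in the knockout library, came from a shallow cluster, and within it the median was -0.10 beside 0.13. Here the library ratio went with transcript length, with Spearman's rho of 0.54 across all 4688 genes with a transcript and 0.21 across the 84 members, and the part of length was not tested. The 5 late spermatid mRNAs summed to 45049 CPM in the heterozygous and 16879 in the knockout Sertoli-like cells, and their part was not tested.

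In Leydig-like cells, which make testosterone partly inside mitochondria, the median of 85 members was 0.01 beside 0.09 over all genes, and 3 members passed 2-fold, all higher (14.4% of all genes, 4.82% higher). Ndufa4 stood at 497.9 CPM in the heterozygous and 1199 in the knockout library (1.27, 1.10 to 1.43), Atp5g3 at 384.7 and 876.7 (1.19, 1.00 to 1.38), and Ndufc2, a complex I subunit, at 496.8 and 1104 (1.15, 0.98 to 1.32). Their lowest values over the settings tried were 0.76, 0.72 and 0.73. Leydig-like cells had a median of 1717 UMIs in the heterozygous and 4182 in the knockout library. Their median share of mitochondrial UMIs was 1.43% and 6.48%, and the part of either difference in these ratios was not tested. Ndufa4 and Atp5g3 also stood higher in the knockout in early-spermatocyte- and Sertoli-like cells, though in the same 2 libraries. The lowest were Ndufa9 (-0.87), Cox6b2 (-0.80, from -1.18 to 0.22 over the settings tried) and Ndufaf2 (-0.79), and the late spermatid mRNAs stood at 32141 and 5458 CPM. In interstitial-stromal-like cells (68 and 73 cells) 7 members were compared and 0 differed 2-fold (9.83% of all genes), from Cox7a2 (-0.38), Ndufa7 (-0.14) and Cox6c (-0.12) to Cox7c (-0.02), Cox8c (0.79) and Cox5a (0.80). In macrophage-like cells (56 and 118 cells) it was 0 of 15 (8.72% of all genes), from Atp5e (-0.67), Atp5h (-0.52) and Cox8a (-0.44) to Cox6c (0.29), Cox5a (0.29) and Cox8c (0.72).

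Other genes of mitochondrial energy supply did not follow the members in every list. The 13 subunits encoded in mitochondrial DNA, partners of the members in complexes I, III, IV and ATP synthase, stood higher in the knockout in all 11 compared in late-spermatocyte-like cells (median 0.46, 0 past 2-fold) and in all 9 compared in elongating-spermatid-like cells (median 1.19, 8 past 2-fold), but in 5 of 10 in round-spermatid-like cells (median 0.04). In elongating-spermatid-like cells mt-Nd1 stood at 108.6 CPM in the heterozygous and 347.7 in the knockout library (1.68, 1.60 to 1.76), with mt-Cytb at 1.54 and mt-Nd4 at 1.37. Cox4i1 stood lower in the knockout in all 9 classes, as in late-spermatocyte-like cells (-0.29, -0.31 to -0.26). Of 18 genes of the citrate cycle and pyruvate dehydrogenase, 8 of 9 compared stood higher in late-spermatocyte-like cells (median 0.41), 6 of 7 in round-spermatid-like (0.19) and 4 of 4 in elongating-spermatid-like cells (0.96), where Pdha2, the testis pyruvate dehydrogenase subunit, was the 1 past 2-fold (1.48, 1.30 to 1.66). Sucla2 and Pdhb stood at 0.98 and 0.94 there. Of all genes compared, 51.7% stood above 0 in late-spermatocyte-like, 52.7% in round-spermatid-like and 71.6% in elongating-spermatid-like cells. In the last class 9.7% were at least 2-fold higher, and TMM factors would shift every ratio by -0.52. Of 31 other assembly factors, 9 were compared in late-spermatocyte-like cells, with Sco2 lowest (-0.72) and Sdhaf4 highest (0.44), and 9 in round-spermatid-like cells, with Uqcc3 lowest (-0.55) and Atpaf2 highest (0.80), and 0 passed 2-fold in either. Tfam, which packs mitochondrial DNA and helps start its transcription, was the 1 of 7 regulators of biogenesis compared in these classes. It stood at -0.64, -0.22 and -0.06 in late-spermatocyte-, round-spermatid- and elongating-spermatid-like cells. The germ cell ADP/ATP carrier Slc25a31 stood at 90.7 CPM in the heterozygous and 114.2 in the knockout late-spermatocyte-like cells (0.33, 0.25 to 0.42). Its general relatives Slc25a4 and Slc25a5 stood at 1.97 and 2.25 CPM there in the heterozygous and 5.63 and 5.81 in the knockout library, under the limit for comparison, and Slc25a5 has processed copies that make its counts uncertain. In Leydig-like cells the order was turned, with Slc25a5 at 443.0 and 540.7, Slc25a4 at 289.1 and 322.6, and Slc25a31 at 15.4 and 21.4 CPM.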

How the data were processed

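UMI counts per gene and cell were deposited by the authors for each of the 2 libraries as filtered matrices that Cell Ranger 7.1.0 wrote, per the file headers. Cell Ranger, Seurat 4.1.0 and mm10 are named in the submitters' processing notes. Libraries were 10x 3′ libraries with 15000 cells loaded each, per the labels' protocols. Depth cannot be compared between replicates, since each genotype has 1 library.

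Cells needed 500 UMIs, 250 genes and no more than 20% mitochondrial UMIs (scanpy 1.11.5, Python 3.11.15), cells with over 1% hemoglobin UMIs were set aside, and doublets were removed with Scrublet in each library. Both libraries were clustered together (2000 variable genes without the members, protamine, transition protein, Xist, mitochondrial and Y-linked genes, 30 principal components, 20 neighbours, Leiden resolution 1), giving 41 clusters. A cluster was named where its markers scored at least 0.5 and 0.25 ahead of the next of 14 marker sets, with at least 3 markers at 10 CPM. Unnamed clusters were split at resolution 0.5. This scoring rule and the splitting were set after the data were seen.

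UMIs were summed per class and library and scaled to CPM, with exact Poisson, Clopper-Pearson and conditional binomial 95% intervals. The size rule is a 2-fold ratio among genes at 50 CPM in at least 1 library and 100 UMIs over both. Where a level rests on 0 counts, the limit is 3 counts. TMM factors came from edgeR 4.0.16 (R 4.3.3) as an alternative, with no edgeR test. The scripts were tested on simulated data. Transcript GC content came from GENCODE M21, which held 32158 of the gene IDs.

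The members and lists were chosen with earlier results of these data known. Named members are the testis, general and muscle versions, the 10 highest, the 8 highest and 8 lowest in elongating-spermatid-like over spermatogonia-like cells, and those with the highest and lowest library ratios in each class (5 each in round- and elongating-spermatid-like cells, 3 each elsewhere). Other named members were chosen after their values were seen. Alternatives were other cell filters, no doublet removal, other clusterings, equal weights for cells or clusters, thinning to 1000 UMIs, TMM factors and CPM minimums of 10 and 200.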

Additional observations from a re-analysis of the deposited data

How the results depend on the processing

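No paired analysis was possible because each genotype has 1 library. In late-spermatocyte-like cells the count of members past 2-fold was 2 in place of 0 with a 10 CPM minimum. In round-spermatid-like cells it was 1 in place of 0 with that minimum, and the members' median of -0.16 was -0.23 with at most 10% mitochondrial UMIs, -0.087 with cells weighted equally and -0.097 with cells thinned. In elongating-spermatid-like cells the median of 0.35 was 0.19 without doublet removal, 0.091 at Leiden resolution 2, 0.090 with clusters weighted equally, 0.072 with a 200 CPM minimum and -0.18 with TMM factors. The count of 4 there was 0 with at least 1000 UMIs per cell, with at most 10% mitochondrial UMIs, with the members among the variable genes, at resolution 2, with clusters weighted equally and with TMM factors. It was 1 without doublet removal, 1 with a 200 CPM minimum and 12 with a 10 CPM minimum. The share of all genes past 2-fold was not counted under the other settings. None of these counts, in any of the classes, can therefore be set against a background. The testis share of 96.3% in heterozygous elongating-spermatid-like cells was 96.7% with at least 1000 UMIs, 95.3% with at most 10% mitochondrial UMIs, 95.6% with the members among the variable genes, 95.2% at resolution 0.5, 96.8% at resolution 2 and 97.4% with clusters weighted equally. The knockout share of 94.8% was 93.4% with at most 10% mitochondrial UMIs, 93.8% without doublet removal, 93.9% with the members among the variable genes, 93.5% at resolution 0.5, 95.3% at resolution 2, 94.4% with clusters weighted equally and 95.4% with cells thinned. The cause was not tested. Of 12 member ratios past 2-fold, 12 kept their sign in every alternative that gave a value, and 2 stayed past 2-fold in each: Cyct in spermatogonia-like cells (1.61 to 1.93) and Cox7b in Sertoli-like cells (-2.15 to -1.22). Of 59 other named ratios, 51 kept their sign. Clustering each library on its own and TMM factors gave values for a part of the results. Small classes limit the depth, with 7 members compared in interstitial-stromal-like cells.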
